A study of Mus musculus with 2 samples.

Results

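The genes described here are 10 markers of the liver sinusoidal endothelium: Stab1, Stab2, Lyve1, Clec4g, Fcgr2b, Pecam1, Kdr, Flt4, Tek and Eng. They were chosen by name, and every probe of each gene that is not a control on the array was read. All 10 are on the array, of 30153 gene names in all, with 13 probes and 31 spots. RNA from 2 samples was compared, 1 of mature hepatocytes (MHs) and 1 of biphenotypic hepatocytes. The MHs came from healthy livers and were collected by low-speed centrifugation and a Percoll gradient after collagenase perfusion. The biphenotypic hepatocytes were sorted by FACS as GFP+EpCAM- cells from livers injured by feeding DDC, which damages the bile ducts, and are called Sox9+EpCAM- cells. Per the methods, both kinds of cell came from Sox9-EGFP mice, in which GFP marks cells that express Sox9, and male is the sex given for the pair. The age and the number of mice and the weeks of diet behind these arrays are not stated. Each Cy3-labelled RNA went onto 1 array, so no value has an SD between mice and no test is possible.

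Liver sinusoids are lined by a fenestrated endothelium without a continuous basement membrane. These endothelial cells take up waste molecules from the blood through scavenger, lectin and Fc receptors, and they respond to vascular endothelial growth factors (VEGFs) and angiopoietins through receptor tyrosine kinases. Neither isolated population is meant to hold endothelium: MHs are separated from smaller cells by centrifugation, and the sort takes cells that express Sox9. An antibody to CD31, the product of Pecam1, is among those used for FACS in the study, and a CD31-CD45- gate is described for a time course. Whether the cells of the array passed that gate is not stated in the sources used here.

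Intensities are given as the percent of the 75th percentile of their array, called relative intensity below, and differences are log2 values of Sox9+EpCAM- cells minus MHs. The 75th percentile was 741 for MHs and 1110 for Sox9+EpCAM- cells. Relative intensities counted as well above background from 3.75% for MHs and from 1.66% for Sox9+EpCAM- cells, and no spot was saturated. Signals passed this limit for 65.7% of gene names in MHs and 75.8% in Sox9+EpCAM- cells. The array labelled MH goes against its label for sex: Xist was well above background there and not on the Sox9+EpCAM- array, and 4 Y-linked genes, read by 5 probes, gave 0 probes over background there and 4 on the other array. Epcam, whose product the sort was to exclude, had 18.8% in MHs and 250% in Sox9+EpCAM- cells, so its RNA goes against the EpCAM- label. Sox9 lay under background in MHs and had 5.43% in Sox9+EpCAM- cells. Sex, diet and isolation can therefore not be told apart in any difference below. In RNA of whole cell preparations, fewer endothelial cells and less RNA of a gene per cell cannot be told apart either.

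Most of the sinusoidal markers had a lower signal in Sox9+EpCAM- cells. Both arrays detected 9 of the 10, and neither detected Lyve1, so none entered through 1 array alone. Fcgr2b, Clec4g, Tek and Stab2, an Fc receptor, a lectin, an angiopoietin receptor and a scavenger receptor, were 8.09-fold to 23.0-fold lower. Eng was 3.98-fold lower, just short of 4-fold, and Kdr was 2.76-fold lower. Pecam1 and Stab1 differed by less than 2-fold, and Flt4 was 2.07-fold higher. Below 0 lay 8 of the 9, as did 55.3% of the 21875 genes with a difference. At 4-fold, 4 of the 9 genes were lower, against 5.96% of those genes, and 0 were higher, against 5.98%. Among the 19232 genes detected on both arrays, as these 9 are, the shares were 4.75% lower and 3.94% higher. At 2-fold, 6 were lower, against 17.9% of all genes, and 1 was higher, against 15.2%. The median difference of the 9 genes was -1.99, against -0.12 over all genes, and their differences spanned 5.57 on the log2 scale.

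**Figure D1:**
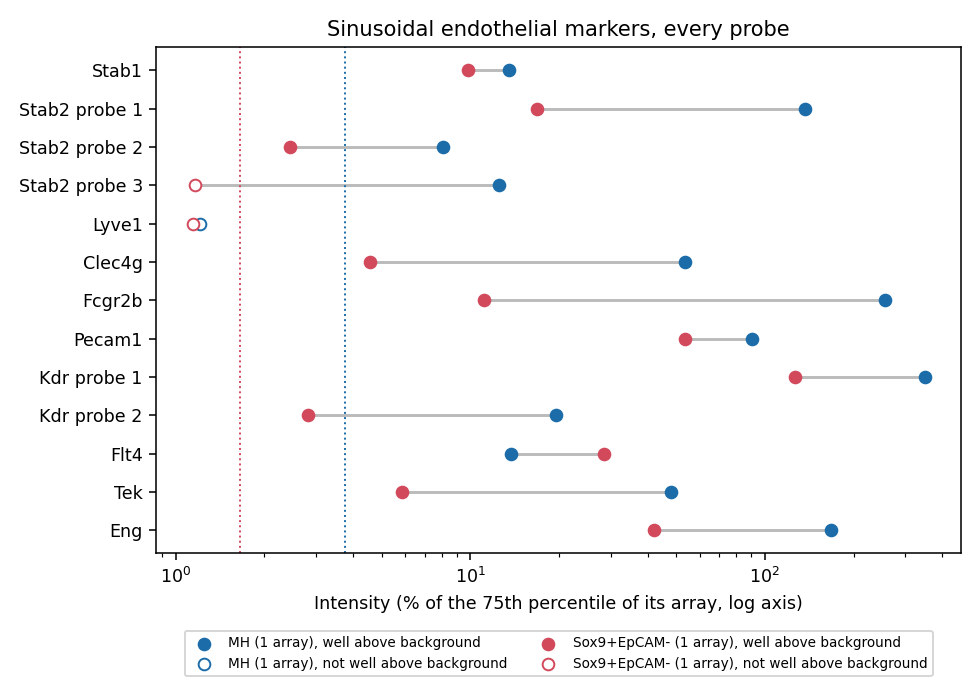
Relative intensity (percent of the 75th percentile of the array, log axis) of each of the 13 probes on the MH array (blue) and the Sox9+EpCAM- array (red), 1 array each. Open circles are not well above background and dotted lines mark the lowest intensity well above background on each array. Every probe except those of Lyve1 and Flt4 lay at least 1.37-fold lower on the Sox9+EpCAM- array, and Fcgr2b had the widest gap.

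Stab1 and Stab2 encode stabilin-1 and stabilin-2, large scavenger receptors that clear modified proteins and, for stabilin-2, hyaluronan. Their probes behaved differently. The 1 probe of Stab1, at chr14:31952288-31952347 of mm9, had a relative intensity of 13.5% in MHs and 9.82% in Sox9+EpCAM- cells. The difference was -0.46, with an error of 0.24 that the scanner software's estimates for the spots give. Stab1 was thus 1.37-fold lower, a small change among the markers, and 37.0% of the 19232 genes measured on both arrays had a lower difference. The brightest probe of Stab2, at chr10:86303982-86304041, had 136% in MHs and 16.8% in Sox9+EpCAM- cells. The difference was -3.02, with a software error of 0.21, and 1.53% of genes had a lower one. Stab2 has 2 more probes on the array, which allows a check within the gene. That at chr10:86455257-86455316 had 8.10% and 2.44%, a difference of -1.73. That at chr10:86381487-86381546 had 12.5% in MHs and no signal over background in Sox9+EpCAM- cells, at least 7.56-fold lower. All 3 probes of Stab2 were lower in Sox9+EpCAM- cells, by unequal amounts, and that at chr10:86455257-86455316 lay inside 4-fold.

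The probes are 60 bases long. The first 30 bases of the 3 Stab2 probes and of the 2 Kdr probes are printed, since these are the markers read at more than 1 position. They are given 5′ to 3′ as the array design holds them, all on the minus strand, and none is in capitals because none of the 13 probes shares 20 bases with a probe of another gene, as 7.19% of the 39429 probes of the array do. The annotation of exons on mm9 was not used here.
Stab2, chr10:86303982-86304041: taagcaccaaaggcaaggcttcatcccata
Stab2, chr10:86381487-86381546: ggcctctgtcatatgtgacctcacatacat
Stab2, chr10:86455257-86455316: tataatgcctgactctgggaacaagcaaac
Kdr, chr5:76329309-76329368: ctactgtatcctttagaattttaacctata
Kdr, chr5:76330395-76330454: tgtttaaatggaagtggtcctgtcccggct

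Lyve1 encodes a hyaluronan receptor of sinusoidal and lymphatic endothelium and is a defining marker of the sinusoid. Its 1 probe, at chr7:117994171-117994230, had a relative intensity of 1.21% in MHs and 1.14% in Sox9+EpCAM- cells, and both lie under the lowest level well above background. No difference can be given for Lyve1, and at this signal a level below those limits cannot be told from none. The label of the gene set as sinusoidal endothelium therefore rests on the 9 other genes here. Of 8 other genes of hyaluronan synthesis, breakdown and binding, 6 had a difference by their brightest probes, from -0.97 to -0.12, with 0 past 4-fold. Scaling to Gapdh, which moves the median of all genes from -0.12 to 0.14, takes the highest of them, Hmmr, above 0. Among these, Cd44, a hyaluronan receptor of many cell types, had -0.33 by its brightest probe. Its 3 others had positive differences of 0.90 to 4.28, of which 4.28 is a bound. A stretch of 20 bases in the brightest one also occurs in another gene's probe. Leaving out such probes, Cd44 had 0.90, and the median of all its probes, 2.44, lies past 4-fold higher.

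Clec4g encodes LSECtin, a C-type lectin of sinusoidal endothelium that binds glycans and T cells. Its 1 probe, at chr8:3716182-3716241, had 53.6% in MHs and 4.57% in Sox9+EpCAM- cells. The difference was -3.55, with a software error of 0.24, and 0.879% of genes had a lower one. Fcgr2b encodes the inhibitory Fc receptor with which sinusoidal endothelium takes up immune complexes, and it is also found on B cells and macrophages. It had the largest difference of the markers. Its probe, at chr1:172890988-172891047, was printed at 10 spots. On the MH array these ran from 227% through a median of 262% to 279%, and on the Sox9+EpCAM- array from 10.5% through 11.1% to 12.3%. The spots of the 2 arrays did not overlap, and their log2 values had an SD of 0.091 in MHs and 0.066 in Sox9+EpCAM- cells. The difference was -4.52 ± 0.035 (SE over 10 spots of each array), with a software error of 0.21. The SE covers the printing and reading of spots and not the variation between mice. Fcgr2b was 23.0-fold lower, and 0.348% of genes had a lower difference.

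Pecam1 encodes CD31, an adhesion molecule of all endothelium that platelets and some leukocytes also carry. Its 1 probe, at chr11:106540864-106540923, had 90.3% in MHs and 53.5% in Sox9+EpCAM- cells. The difference was -0.75, with a software error of 0.20. Pecam1 stayed well above background in Sox9+EpCAM- cells, and 24.6% of genes had a lower difference. The signal of Pecam1 was therefore far closer between the arrays than that of Fcgr2b, Clec4g, Tek or Stab2. With 1 array in each group the gap between these genes has no test.

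The receptor tyrosine kinases among the markers went in different directions. Kdr encodes VEGF receptor 2, the main signalling receptor for VEGF-A on endothelium. Its brightest probe, at chr5:76330395-76330454, had 348% in MHs and 126% in Sox9+EpCAM- cells, a difference of -1.46 with a software error of 0.20. A dimmer probe of Kdr, at chr5:76329309-76329368 and 1026 bases away, was printed at 10 spots, of which 1 was left out as an outlier. Its 9 spots ran from 18.1% through a median of 19.2% to 22.4% on the MH array and from 2.60% through 2.71% to 3.38% on the Sox9+EpCAM- array, without overlap. The difference of the dimmer probe was -2.80 ± 0.050 (SE over 9 spots of each array), 6.95-fold lower, with a software error of 0.29. Both probes of Kdr were lower in Sox9+EpCAM- cells, but they place it on opposite sides of 4-fold. The spot left out had 36.8% in MHs and 3.21% in Sox9+EpCAM- cells.

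**Figure D2:**
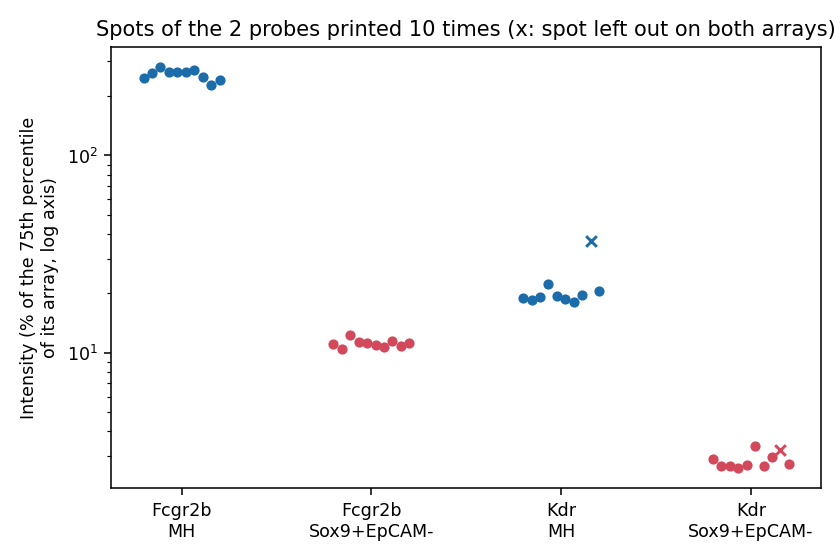
Relative intensity (percent of the 75th percentile of the array, log axis) of each spot of the Fcgr2b probe and of the dimmer Kdr probe on the MH array (blue) and the Sox9+EpCAM- array (red). Crosses are the spot left out on both arrays. The spots of the 2 arrays do not overlap for either gene, and the spots of 1 array lie close together.

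Flt4 encodes VEGF receptor 3, which binds VEGF-C and is found on lymphatic and sinusoidal endothelium. Its 1 probe, at chr11:49465646-49465705, had 13.8% in MHs and 28.5% in Sox9+EpCAM- cells. The difference was 1.05, with a software error of 0.22, and Flt4 was the only marker with a higher signal in Sox9+EpCAM- cells. Of genes measured on both arrays, 88.9% had a lower difference. Tek encodes Tie2, the receptor of the angiopoietins. Its 1 probe, at chr4:94540624-94540683, had 48.2% in MHs and 5.87% in Sox9+EpCAM- cells. Tek was 8.20-fold lower, a difference of -3.04 with a software error of 0.22, and 289 of the 19232 genes had a lower one. Eng encodes endoglin, a co-receptor for TGF-beta and BMP ligands on endothelium. Its 1 probe, at chr2:32537268-32537327, had 167% in MHs and 42.1% in Sox9+EpCAM- cells. The difference was -1.99, with a software error of 0.20. Eng was the marker nearest to the 4-fold limit from outside, and Stab2, with -3.02, the nearest from inside.

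**Figure D3:**
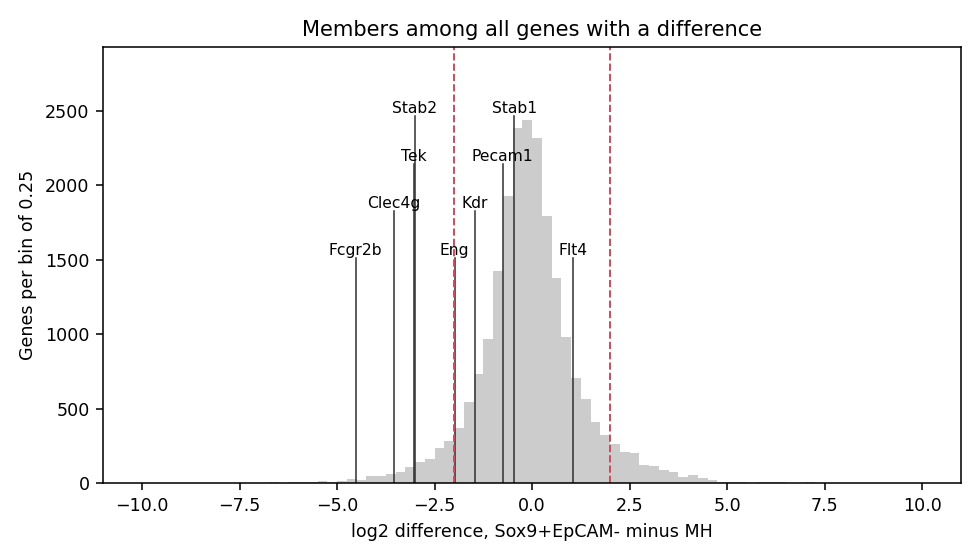
Number of genes per bin of 0.25 in the log2 difference of Sox9+EpCAM- cells minus MHs for 21875 genes, with the 9 markers that have a difference as lines, whose heights carry no value. Dashed lines mark 4-fold. Of the markers, 4 lie below the lower dashed line, Eng lies next to it and Flt4 alone lies above 0.

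The genes that serve these receptors were set beside them. Counts past 4-fold in these and the later lists stand against 5.96% lower and 5.98% higher over all genes with a difference. Of 12 other genes of the VEGF and angiopoietin systems, 10 had a difference, with a median of -0.29; 2 were at least 4-fold lower and 1 was at least 4-fold higher. Vegfa, the ligand of Kdr, had -0.68 by its brightest probe and 0.42 by its other, so its direction depends on the probe. Vegfb, a ligand of VEGF receptor 1, had -1.33. Of the ligands of Flt4, Vegfc had 0.63 and Figf, the gene of VEGF-D, had -0.38. Pgf, the gene of placental growth factor, was 6.58-fold higher, from 11.4% in MHs to 75.3% in Sox9+EpCAM- cells. Flt1, the gene of VEGF receptor 1, had 0.56 and -0.88 by its 2 probes with a difference. The co-receptors Nrp1 and Nrp2 had -0.19 and 1.77. Of the ligands of Tek, Angpt1 and Angpt4 were not well above background on either array, and Angpt2 was over background in MHs alone, at least 4.31-fold lower. Tie1, the partner receptor of Tek, had 15.7% in MHs and 2.72% in Sox9+EpCAM- cells. Tie1 was 5.75-fold lower. With normexp background correction Tie1 had -1.49 and Angpt2 a bound of -1.24, inside 4-fold, while Tek stayed past it.

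Of 13 ligands, receptors and targets that work with Eng, 11 had a difference, with a median of 0.04, which turned to -0.14 in the deposited table of ratios. Gdf2, the gene of BMP9, was over background in MHs alone, with 11.4%, and at least 6.87-fold lower. Bmp10, the gene of the other ligand with high affinity for endoglin, had 599% in MHs and 226% in Sox9+EpCAM- cells, a difference of -1.41. The receptor Acvrl1, which signals with endoglin, had 0.50. The receptor Bmpr2 had -0.46 by its 1 probe. Tgfbr2 had 0.58 by its brightest probe and -0.77 by its other, and Tgfbr1 had -0.07 by its brightest probe and 1.31 by another. Of the signal carriers, Smad1 had -0.01 by its brightest probe and 1.93 by another, and Smad5 had 0.68. The values of Tgfbr1, Tgfbr2 and Smad1 thus depend on the probe. Tgfb1 and Tgfb3, the genes of 2 TGF-beta ligands, had 0.04 and 2.24. The value of Tgfb1 lies near 0 and turned to -0.27 with normexp background correction. With normexp background correction Gdf2 had a bound of -1.45 and Tgfb3 had 1.37, both inside 4-fold. Id1, a target of BMP signalling, had 1.56.

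Other genes of endothelium were read as a further view of the same cells. Of 24 sinusoidal genes outside the 10, 21 had a difference, with a median of -1.10; 6 were at least 4-fold lower and 1 was at least 4-fold higher. Of the 6, 3 passed through the MH array alone, and over genes detected on both arrays 3 were lower, with a median of -0.57. Mrc1, the mannose receptor, and Oit3, a sinusoidal gene of the zona pellucida domain family, were over background in MHs alone, at least 38.7-fold and 17.8-fold lower. Icam1, an adhesion molecule that many cell types raise under inflammation, was 5.36-fold higher. Of 25 genes shared by most endothelium, 18 had a difference, with a median of -1.79; 9 were at least 4-fold lower and 1 was at least 4-fold higher. Over genes detected on both arrays 5 were lower, with a median of -1.36. The 3 named next as lower were detected in MHs alone. Cdh5, the gene of VE-cadherin and a defining marker of endothelium, had 13.9% in MHs and no signal over background in Sox9+EpCAM- cells, at least 8.39-fold lower. Rasip1, needed for the vessel lumen, was at least 73.4-fold lower, and Sox17 at least 14.2-fold. Cldn5, a tight junction protein of endothelium, was 10.4-fold higher in the Sox9+EpCAM- cells. The median of the 9 markers lay below those of both lists, which has no test. The median of the other sinusoidal genes, -1.10, lay above those of the hepatocyte list, -1.20, and the red cell list, -1.68.

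Kupffer cell genes were lower beside the sinusoidal ones, while lists of other cell types differed in direction. Of 14 Kupffer cell and macrophage genes, all 14 had a difference, with a median of -2.94; 11 were at least 4-fold lower and 1, Cd68, was at least 4-fold higher. Over the 10 detected on both arrays, 7 were at least 4-fold lower, with a median of -2.71. Their summed relative intensity, over genes well above background, was 3869% in MHs and 1494% in Sox9+EpCAM- cells. Csf1r, a macrophage growth factor receptor, gave 1646% and 1234% of these, and without it the sums were 2222% and 259%. Its brightest probe had -0.42, and its 2 others had -0.70 and -2.71. Clec4f, a defining marker of Kupffer cells, had 915% and 10.6%, and Vsig4, Timd4, Cd163 and C1qc lay under the background limit in Sox9+EpCAM- cells. Fcgr2b and Stab1 are also expressed by macrophages, and the part of Kupffer cell RNA in their differences was not tested. Ptprc of leukocytes had -0.24 and Itga2b of platelets 0.06, near the medians of their lists, -0.24 and 0.07. Alb of hepatocytes had -0.87, and all 14 hepatocyte genes were below 0, of which scaling to Gapdh takes Hnf4a above 0. At least 4-fold lower were 4 of the 14, among them Cyp3a11 with -8.58 and Cyp2e1 with -5.47. Of the 10 ductal genes, 7 were above 0, Epcam with 3.73 among them, and 3 were below 0 (Krt7 with -0.23, Prom1 with -1.20 and Cftr with 9.39% in MHs and 4.69% in Sox9+EpCAM- cells), of which Krt7 turns above 0 with Gapdh scaling. Of 12 stellate cell and fibroblast genes with a difference, 10 were above 0 and 4 at least 4-fold higher, among them the collagen genes Col3a1 with 6.41 and Col1a1 with 4.41. The 2 below 0 were Lrat, a stellate cell marker, with a bound of -2.95, and Rgs5 of pericytes with -2.25.

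**Figure D4:**
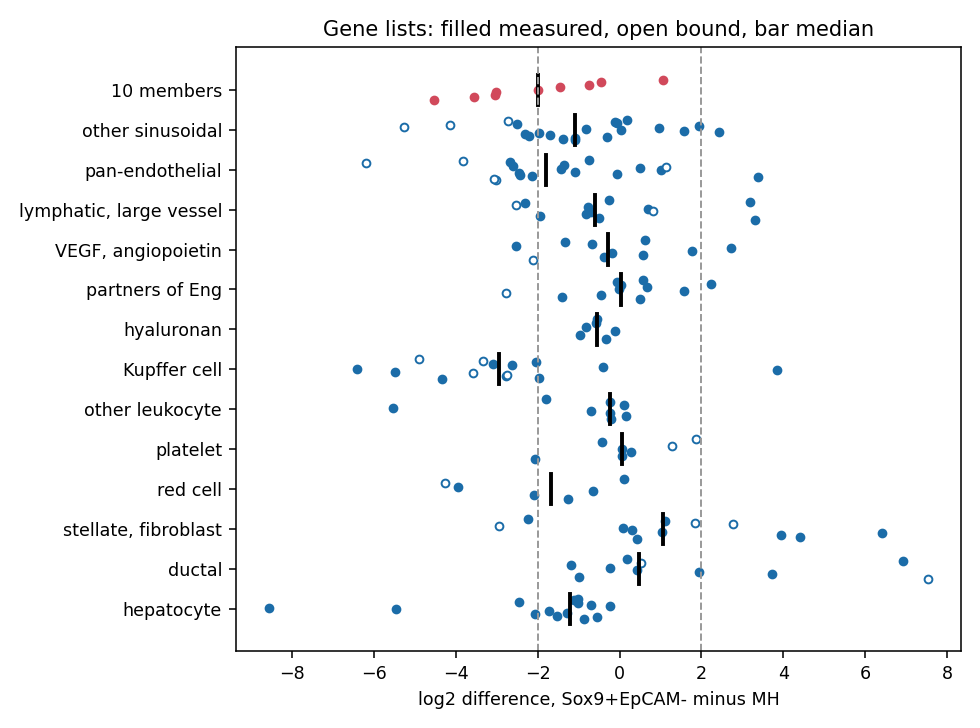
Log2 difference of Sox9+EpCAM- cells minus MHs for the markers (red) and 13 further gene lists (blue); each point is a gene, open points are bounds, black bars are medians and dashed lines mark 4-fold. The medians of the markers, of the pan-endothelial list and of the Kupffer cell list are the lowest, and those of the stellate and ductal lists lie above 0.

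Promoters of the 4 markers past 4-fold are printed. They were chosen by their differences, and shared control of these genes was not tested. RefSeq start sites on GRCm38.p6 were at hand here for 8 of the 10 genes, all except Lyve1 and Pecam1. The 250 bases before the start were searched on both strands. The motifs were AGGAAG, a core that ETS factors bind, AGATAA, a core that GATA factors bind, and AAACA, within the core of forkhead factors. Matches of different motifs do not overlap in these windows. Capitals mark the matches, in which CTTCCT and TGTTT are the reverse strand of the first and the last motif.
Fcgr2b, chr1:170976072-170976321, minus strand: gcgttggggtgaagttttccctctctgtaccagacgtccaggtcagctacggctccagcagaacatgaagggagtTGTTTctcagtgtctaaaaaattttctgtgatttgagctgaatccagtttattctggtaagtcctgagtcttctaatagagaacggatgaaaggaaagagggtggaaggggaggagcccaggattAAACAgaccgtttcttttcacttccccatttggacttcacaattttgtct
Clec4g, chr8:3720652-3720901, minus strand: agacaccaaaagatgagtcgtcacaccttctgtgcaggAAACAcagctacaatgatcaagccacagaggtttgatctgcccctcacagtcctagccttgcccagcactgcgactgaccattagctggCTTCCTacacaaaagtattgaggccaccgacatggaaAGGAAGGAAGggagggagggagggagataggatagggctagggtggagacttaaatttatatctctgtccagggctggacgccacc
Tek, chr4:94739039-94739288, plus strand: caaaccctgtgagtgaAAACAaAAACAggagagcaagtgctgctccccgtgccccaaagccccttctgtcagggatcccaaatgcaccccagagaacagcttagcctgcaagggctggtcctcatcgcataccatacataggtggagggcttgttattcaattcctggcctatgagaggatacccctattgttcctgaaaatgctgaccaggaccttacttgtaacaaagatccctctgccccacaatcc
Stab2, chr10:87007943-87008192, minus strand: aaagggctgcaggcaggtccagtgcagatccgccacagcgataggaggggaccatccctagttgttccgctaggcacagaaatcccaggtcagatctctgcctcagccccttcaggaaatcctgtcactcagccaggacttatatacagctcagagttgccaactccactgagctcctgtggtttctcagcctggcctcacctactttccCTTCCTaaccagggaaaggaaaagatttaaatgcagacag
AGGAAG was found before 4 of the 8 genes (Clec4g, Eng, Stab1 and Stab2), and 29.5% of 32851 promoter windows hold it. Clec4g holds 3 matches, 2 of which overlap, and in Stab2 the match begins 40 bases before the start. AAACA was found before 3 of the 8 (Clec4g, Fcgr2b and Tek), against 46.4% of all windows. AGATAA was found before 0 of the 8, against 9.99%. These shares describe 8 windows and have no test.

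The differences of the markers kept their sign under each of 11 other ways of processing. Stab1 ranged from -0.63 to -0.19, Pecam1 from -0.93 to -0.49, Flt4 from 0.61 to 1.31 and Eng from -2.17 to -1.73. Kdr ranged from -2.80, with the probe of the largest difference, to -1.20, with scaling to Gapdh. Fcgr2b, Clec4g, Tek and Stab2 stayed past 4-fold in all of them, with the smallest sizes of -3.88, -2.52, -2.23 and -2.63. A Stab2 probe with -1.73 lay inside 4-fold, and none of these ways takes that probe for the gene.

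**Figure D5:**
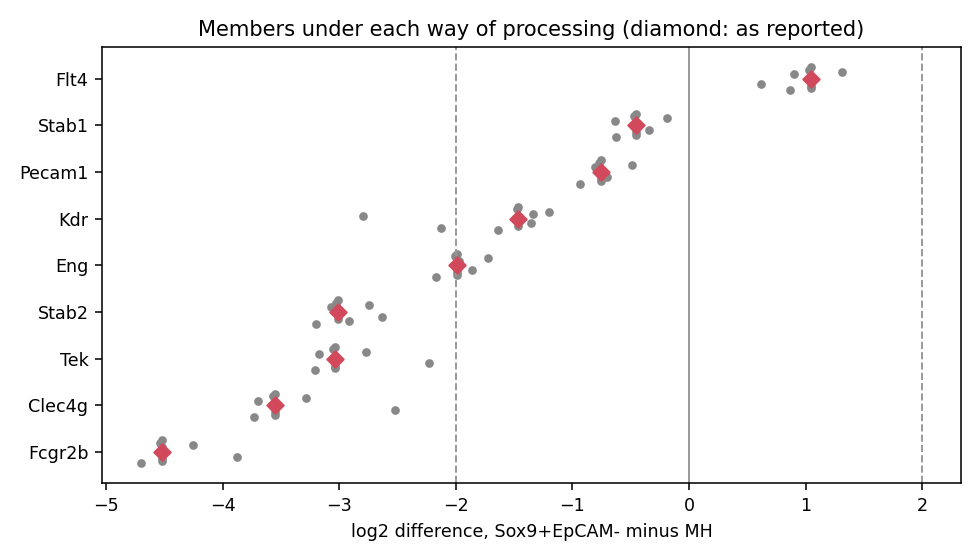
Log2 difference of Sox9+EpCAM- cells minus MHs for the 9 markers as reported (red diamonds) and under 11 other ways of processing (grey points); dashed lines mark 4-fold and the solid line no difference. No marker crosses 0, and Eng and Kdr cross 4-fold.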

How the data were processed

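The data are 2 one-colour Agilent arrays with 60-base probes and mm9 coordinates, 1 for each group. The authors deposited Feature Extraction 10.7.3.1 output, which holds each spot's processed intensity (background and spatial trend taken off) and flags, and a table of ratio values, found here to be that intensity over the array's median. A service provider did the array work.

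Controls and any spot with an outlier flag were dropped, intensities were divided by the 75th percentile of the 43020 other spots of their array, and log2 values of the spots of a probe were averaged. A probe is well above background where most of its spots are. The brightest probe, by the mean of its log2 values across arrays, stands for a gene. A probe well above background on 1 array has a bound, taken on the other array against its own signal or that array's detection limit, whichever is higher. A bound that crosses 0 gives no difference. The limit for a called gene was 4-fold. The software's error is the one it gives each spot. Precision is limited by the number of arrays.

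The markers and the 13 further gene lists were chosen with earlier results of these data known. From the lists, the partners of the markers, the defining markers and up to 3 genes at each end were named. Smad1, Smad5, Id1, Plvap, Vwf, Csf1r, Krt7, Sox9 and the Kupffer cell genes under background were named after their values were seen. Alternatives were normexp background correction (limma 3.58.1, R 4.3.3, offset 50), 3 other scalings, the deposited table, outlier spots kept, other choices of probe, no bound, genes above background on both arrays only, and limits of 2-fold and 10-fold. A value moved if it changed by over 1.5-fold. Python 3.11.15 was used. A simulation copied the MH array with small noise added to each spot and the same change for every probe of a gene. With 200 changed genes, all 98 that were measured on both arrays were recovered within 1.5-fold and 0 unchanged genes were called. The simulation held no variation between mice, so it checks the calculation only and gives no rate of false calls.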

Additional observations from a re-analysis of the deposited data

How the results depend on the processing

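No paired analysis was possible because there is only 1 array per group. Leaving out a replicate and a slide block need more arrays and were not run. Taking the probe that differs most was an alternative chosen after seeing the data. Of the values of the markers under the alternatives, 94 changed by less than 1.5-fold and 5 by more, some of the first because the alternative cannot change them (a gene with 1 probe). Normexp correction gave -3.88 for Fcgr2b, -2.52 for Clec4g and -2.23 for Tek. For Kdr the median of both probes gave -2.13 and the probe with the largest difference -2.80. That probe choice also moved the median of the markers from -1.99 to -2.80. The number of markers at least 4-fold lower was 4 or 5 at that limit, as Eng or Kdr crossed it, 6 at 2-fold and 2 at 10-fold; the number higher was 0, and 1 at 2-fold. Scaling to Gapdh moved the median of the pan-endothelial list from -1.79 to -1.17 and that of all genes from -0.12 to 0.14. It gave 1650 genes higher and 1006 lower by 4-fold, against 1309 and 1304, and normexp correction gave 612 and 660. Normexp correction and the use of genes above background on both arrays only each left 3 of the other sinusoidal genes, 5 of the pan-endothelial and 7 of the Kupffer cell genes at least 4-fold lower, against 6, 9 and 11. Under these 2 settings 0 and 1 of the other VEGF and angiopoietin genes were at least 4-fold lower, against 2. The low intensity of Lyve1 and of the Stab2 probe without a measured level limits what can be read from them.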

Other observations

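Among genes of lymphatic and larger vessels, 12 of the 14 on the array had a difference, with a median of -0.61; 2 were at least 4-fold lower and 2 at least 4-fold higher. Cd34, a sialomucin of capillary endothelium and of progenitor cells, had a relative intensity of 11.2% in MHs and 111% in Sox9+EpCAM- cells, 9.86-fold higher, and its other probe gave a bound of 0.10. Vcam1, an adhesion molecule for leukocytes, had 22.8% and 206%, 9.05-fold higher, and 1.47 by its other probe. With the median of all probes Cd34 had 1.70 and 1 gene of the list, Vcam1, was at least 4-fold higher. Selp, the gene of P-selectin in endothelium and platelets, had 192% and 38.3%, a difference of -2.32. Sele, the gene of E-selectin, was detected in MHs alone, with a bound of -2.53 that became -1.44 with normexp correction, which leaves Selp as the 1 gene at least 4-fold lower. The same holds over genes detected on both arrays. Plvap, a protein of the diaphragms of fenestrated endothelium, had 0.70 by the probe with the higher mean of log2 values and -2.83 by its other, which has the higher mean of intensities, so its direction depends on the probe. Vwf, the gene of von Willebrand factor, had -0.27 and -1.80 by its 2 probes.

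Among 14 other leukocyte genes, 8 had a difference, and the median turned to 0.03 under scaling to Gapdh, and 1, Laptm5, was at least 4-fold lower. Of 9 platelet genes, 7 had a difference, and the median changed its sign under other scalings. At least 4-fold lower was 1, Clec1b, with -2.07 by its brightest probe. Scaling to Gapdh or quantile normalization brought this count to 0. The other probes of Clec1b had -3.17 and a bound of -5.47. Of 8 red cell genes, 6 had a difference, with a median of -1.68, and 3 were at least 4-fold lower. Over the 5 detected on both arrays the median was -1.27 and 2 were at least 4-fold lower, and with Gapdh scaling 2 of the 6 were. The stellate cell and fibroblast list had a median of 1.07 over 12 genes, the ductal list 0.47 over 10 and the hepatocyte list -1.20 over 14. The hyaluronan genes had a median of -0.56 over 6.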
